A study of Mus musculus with 24 samples.

Results

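The genes described here encode 7 ion channel subunits of heart muscle: the pacemaker channels Hcn2 and Hcn4, the L-type calcium channel pores Cacna1c and Cacna1d, the T-type calcium channel pores Cacna1g and Cacna1h, and the sodium channel beta subunit Scn4b. They were taken by name from the count table, which lists 23337 genes, and all 7 passed the filter on low counts that left 12281 genes for testing. The data are polyadenylated RNA from cardiomyocytes of 4-week-old mice, sorted by fluorescence after Langendorff perfusion and amplified with a full-length cDNA kit, in 4 groups of 6 libraries each. Every mouse carried Cas9 in the Rosa26 locus and received an adeno-associated virus (AAV) on postnatal day 1. The TKO group lacked Mrtfa (genotype written Mrfta-/- in the labels), carried Mrtfb-F/F alleles and received AAV-Myocd-sgRNA, which delivers a Myocd guide. The DKO group had the same Mrtfa and Mrtfb alleles and received AAV-Cre. The MKO group had no Mrtf mutation and received AAV-Myocd-sgRNA. The control group (Ctrl) had no Mrtf mutation and received AAV-Cre. The labels give AAV-Myocd-sgRNA as the only virus of the TKO group and do not state whether it carried Cre. They name no promoter for either virus and no animal of origin. The spread behind each p-value is therefore that between libraries and may be technical.

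Total counts lay between 10.21 M and 17.18 M (M, mega) in TKO, 5.83 M and 12.16 M in DKO, 9.73 M and 13.20 M in MKO, and 8.02 M and 11.50 M in Ctrl. Mrtfa, listed as Mkl1, lay between 1.33 and 2.66 CPM (counts scaled to an effective library size of 1 M) in TKO and between 1.40 and 2.77 CPM in DKO, below all libraries of MKO (6.39 to 11.87 CPM) and Ctrl (4.81 to 11.33 CPM). Mrtfb, listed as Mkl2, lay between 27.47 and 42.52 CPM in TKO and between 44.78 and 55.89 CPM in Ctrl. Myocd lay between 175.2 and 323 CPM in TKO, 175.4 and 242 in DKO, 120 and 187 in MKO and 153 and 234 in Ctrl. Its transcript was higher in TKO, which received the Myocd guide, than in Ctrl by 0.40 ± 0.13 on the log2 scale (adjusted p = 0.0437) and than in MKO by 0.77 ± 0.13 (adjusted p = 0.000374), and counts cannot check the editing itself. The 8 defining cardiomyocyte markers, among them Actn2, Tnnt2 and Ryr2, summed to between 93293 and 114953 CPM in TKO, 81072 and 121668 in DKO, 107517 and 134740 in MKO, and 121159 and 157458 in Ctrl, so the labelled cell type was present in every library. Against Ctrl, 3 of these 8 and 2 of 4 ventricular markers fell in TKO, where 5.98% of all tested genes were lower. The shallowest library, DKO 1, stood apart: its cardiomyocyte markers had the lowest sum (81072 CPM) and its 4 ventricular markers the highest (22414 CPM, against at most 12791 CPM in Ctrl). Unless stated otherwise, DKO results include DKO 1, and some for Hcn2, Cacna1h and Cacna1c are therefore also given without it.

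HCN channels open when the membrane is hyperpolarised, are helped by cyclic AMP, and carry the inward current that paces the sinoatrial node. In this family Hcn4 is best known from the node and Hcn2 from both node and working muscle. L-type calcium channels, mainly the Cacna1c pore in ventricle, let in the calcium that triggers release from the sarcoplasmic reticulum, whereas T-type channels open at more negative voltages, are expressed in the fetal ventricle and later mainly in pacemaker and conduction tissue. Scn4b joins the pore of the voltage-gated sodium channel and shapes its gating.

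Of the 7 genes, 5 matched a promoter of 300 bases (250 before and 50 after the start site) in the RefSeq table for GRCm38.p6, the assembly of the mm10 files. The promoters of Hcn2 and Hcn4 are printed because these related channels moved in opposite directions in TKO. Hcn2 lies on chr10:79716384-79716683 and Hcn4 on chr9:58822699-58822998, both on the plus strand. Capitals mark GC boxes (GGGCGG or its reverse complement) and, in Hcn4, a T-box element (AGGTGT or its reverse complement).
Hcn2: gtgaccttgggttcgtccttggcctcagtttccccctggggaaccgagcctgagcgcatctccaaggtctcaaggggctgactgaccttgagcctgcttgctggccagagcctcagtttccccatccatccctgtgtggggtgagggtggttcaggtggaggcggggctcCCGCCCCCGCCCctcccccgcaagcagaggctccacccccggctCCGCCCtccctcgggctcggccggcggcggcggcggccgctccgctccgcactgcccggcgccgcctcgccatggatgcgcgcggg
Hcn4: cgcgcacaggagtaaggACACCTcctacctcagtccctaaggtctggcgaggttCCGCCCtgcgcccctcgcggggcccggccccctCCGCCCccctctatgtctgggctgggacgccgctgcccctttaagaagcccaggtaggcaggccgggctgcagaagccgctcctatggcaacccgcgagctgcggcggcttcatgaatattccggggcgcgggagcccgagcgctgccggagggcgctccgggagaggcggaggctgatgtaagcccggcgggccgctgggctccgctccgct
GC boxes matched at 3 places in the Hcn2 promoter and at 2 in that of Hcn4, and 35.7% of the 32851 promoters in the table hold at least 1. The T-box element matched once in Hcn4 and not in Hcn2, and 13.7% of promoters hold it. Base composition was alike, with 72.3% G or C in Hcn2 and 71.7% in Hcn4, against a median of 52.7% over all promoters. A CArG box, the motif bound by serum response factor (SRF), had no match in these promoters or in any of the 8 listed for the 5 genes, and 1.63% of promoters hold one. Both strands were searched, and a match or its absence in this window is a description of its letters only.

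The genes spanned a wide range of levels. Per kilobase of exon, so that genes can be compared, Cacna1c averaged 25.9 CPM per kb in Ctrl and Hcn2 22.7. Cacna1g stood at 6.55, Cacna1h at 1.88 and Hcn4 at 1.27 CPM per kb in Ctrl. Scn4b, at 0.444, and Cacna1d, at 0.128 CPM per kb, had few reads, with counts as low as 2 and 6 in a Ctrl library. Because the libraries come from many cells, fewer cells of a type and less RNA per cell cannot be told apart.

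**Figure D1:**
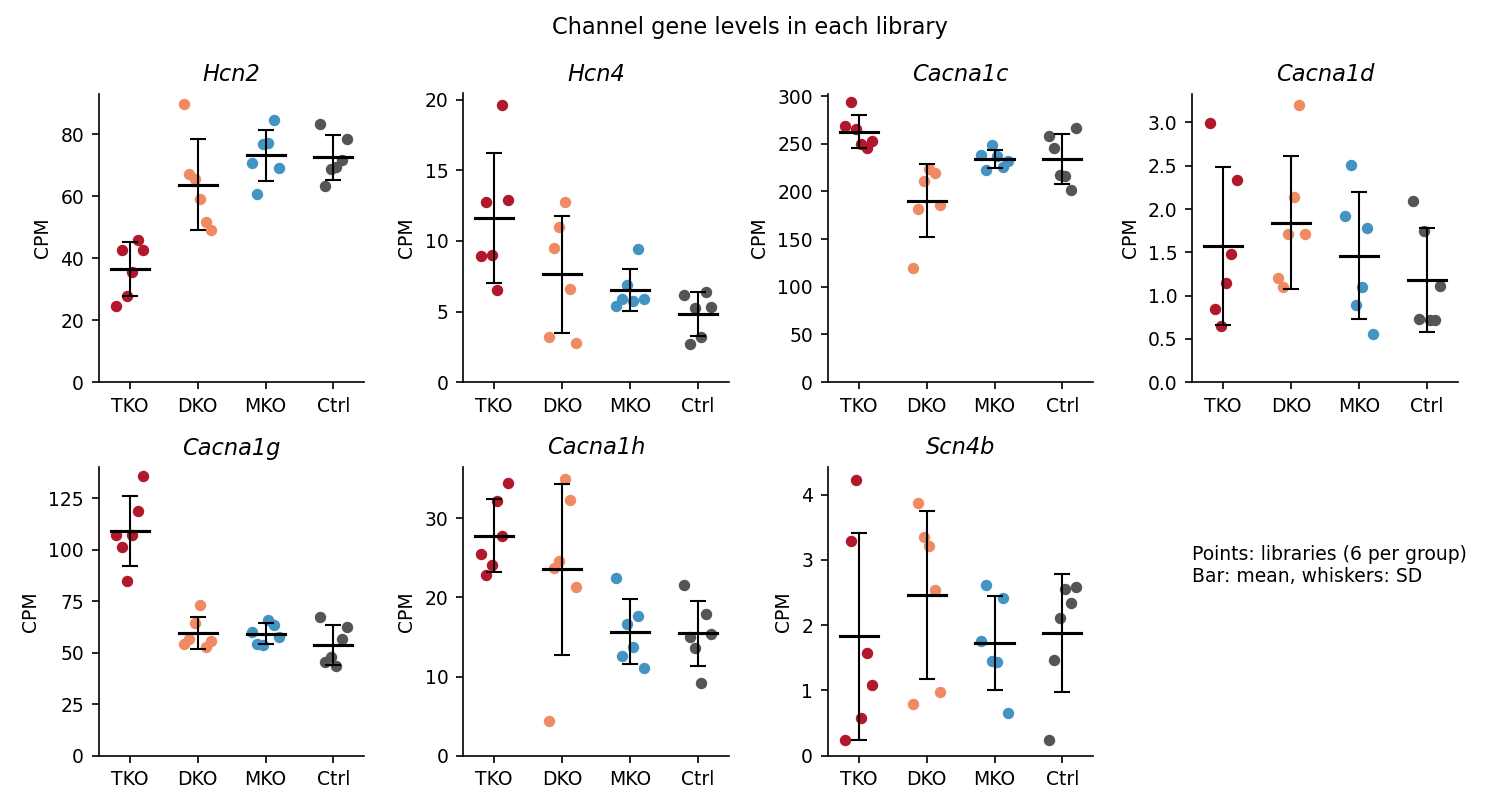
CPM of each channel gene (y axes, linear) in the 6 libraries of TKO, DKO, MKO and Ctrl (points), with the group mean (bar) and SD (whiskers). Hcn2 was lower and Hcn4, Cacna1g and Cacna1h were higher in TKO than in all 6 Ctrl libraries, and DKO 1 is the DKO point at 4.39 CPM for Cacna1h.

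Hcn2 (chromosome 10, 79716634 to 79736108, plus strand), which encodes the more abundant of the pacemaker channels here, fell in TKO against each of the other groups. In TKO it lay between 24.6 and 45.7 CPM with a median of 39.1, in DKO between 49.0 and 89.9 with a median of 62.3, in MKO between 60.6 and 84.7 with a median of 73.8, and in Ctrl between 63.2 and 83.3 with a median of 70.7. All 6 TKO libraries were below every library of the other groups, and DKO, MKO and Ctrl overlapped. Against Ctrl, Hcn2 fell by 0.99 ± 0.15 on the log2 scale (± SE, adjusted p = 4.05e-05), a fold of 0.503. Against DKO it fell by 0.80 ± 0.15 (adjusted p = 0.00121) and against MKO by 1.005 ± 0.147 (adjusted p = 4.63e-05). Its log2 ratio to Ctrl was -0.19 ± 0.15 in DKO (adjusted p = 0.678), while that of MKO was 0.01 ± 0.14 (adjusted p = 0.989). DKO 1 had the highest value of all 24 libraries, and without it the other 5 DKO libraries lay between 49.0 and 67.2 CPM and the log2 ratio was -0.32 (adjusted p = 0.315).

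Hcn4 (chromosome 9, 58823512 to 58860955, plus strand), the main pacemaker channel of the sinoatrial node, rose in TKO against Ctrl. It lay between 6.56 and 19.6 CPM in TKO with a median of 10.9, between 2.77 and 12.8 in DKO with a median of 8.07, between 5.42 and 9.45 in MKO with a median of 5.89, and between 2.68 and 6.41 in Ctrl with a median of 5.29. The 6 TKO libraries were above all Ctrl libraries but overlapped DKO and MKO. The rise of Hcn4 against Ctrl was 1.26 ± 0.32 log2 units (adjusted p = 0.00854), a fold of 2.40. The log2 ratio was 0.58 ± 0.31 against DKO (adjusted p = 0.258) and 0.82 ± 0.31 against MKO (adjusted p = 0.0783). The last of these passed without DKO 1 (0.0412), without DKO 6 or TKO 4, with 22 libraries (0.0418), with DESeq2 (0.0497) and with TKO and MKO fitted alone (0.0216). Against Ctrl it was 0.68 ± 0.32 in DKO (adjusted p = 0.466) and 0.44 ± 0.32 in MKO (adjusted p = 0.799), so the order of means was TKO, DKO, MKO, Ctrl, with no neighbours in it differing by the test. Atrial cells also express Hcn4. Atrial markers other than the stress-responsive Nppa (8 genes, among them Sln, Myl7 and Bmp10, none at 0 throughout) summed to between 31.5 and 59.6 CPM in TKO. Their sums lay between 37.3 and 182.3 CPM in DKO, 35.4 and 52.4 CPM in MKO, and 32.3 and 142.7 CPM in Ctrl. With Nppa included the sums were 168.9 to 3967 CPM in TKO and 88.0 to 546 CPM in Ctrl.

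Cacna1g (chromosome 11, 94408391 to 94474198, minus strand), the more abundant T-type pore here, rose in TKO against each of the other groups. It lay between 84.6 and 135.5 CPM in TKO with a median of 107.0, between 52.6 and 72.9 in DKO with a median of 56.3, between 53.8 and 66.0 in MKO with a median of 58.8, and between 43.4 and 67.2 in Ctrl with a median of 52.3. The lowest TKO library was above the highest of the other 18. The rise of Cacna1g was 1.02 ± 0.12 log2 units against Ctrl (adjusted p = 1.39e-06), 0.87 ± 0.12 against DKO (adjusted p = 4.33e-05) and 0.88 ± 0.12 against MKO (adjusted p = 1.33e-05). The log2 ratio to Ctrl was 0.14 ± 0.12 both in DKO (adjusted p = 0.709) and MKO (adjusted p = 0.823), and DKO differed from MKO by 0.01 ± 0.12 (adjusted p = 0.979).

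Cacna1h (chromosome 17, 25374287 to 25433783, minus strand), the second T-type pore, differed from Cacna1g in that its values were also high in most DKO libraries. It lay between 22.8 and 34.4 CPM in TKO with a median of 26.6, between 4.39 and 34.9 in DKO with a median of 24.2, between 11.1 and 22.4 in MKO with a median of 15.2, and between 9.20 and 21.6 in Ctrl with a median of 15.2. The TKO libraries were above all Ctrl and MKO libraries, and DKO 1, at 4.39 CPM from 22 counts, was the lowest of all 24. The other 5 DKO libraries, at 21.3 to 34.9 CPM, overlapped Ctrl only in that their lowest value was under the highest Ctrl value. Cacna1h rose in TKO by 0.85 ± 0.27 against Ctrl (adjusted p = 0.0391) and by 0.82 ± 0.27 against MKO (adjusted p = 0.0453). Both calls were lost with sex as a term (0.0577 and 0.0573). The call against Ctrl was also lost on omitting any one of Ctrl 2, 3, 4 and 6 and of TKO 1, 4, 5 and 6 (up to 0.0918). The call against MKO was also lost on omitting any one of MKO 2, 3, 4, 5 and 6, of DKO 2, 3 and 6, and of TKO 1, 3, 4, 5 and 6 (up to 0.101). Without DKO 1 they were 0.0015 and 0.00204. The log2 ratio of DKO to Ctrl was 0.63 ± 0.28 (adjusted p = 0.421). Without DKO 1 it was 0.82 (adjusted p = 0.0299), and with 22 libraries 0.78 (0.073). Against MKO it was 0.60 ± 0.27 (adjusted p = 0.303), 0.80 without DKO 1 (0.0324) and 0.80 with 22 libraries (0.0352). TKO and DKO did not differ by the test (0.22 ± 0.27, adjusted p = 0.637). Exons of Cacna1h overlap 156 bases of Tpsg1 on the other strand, and Tpsg1 had 0 counts in every library.

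Cacna1c (chromosome 6, 118592296 to 119196409, minus strand), the pore of the main L-type channel of the ventricle, was the most abundant of the 7 genes and was called in TKO against DKO. It lay between 246.1 and 294.1 CPM in TKO with a median of 259.2, between 120.2 and 223.4 in DKO with a median of 198.4, between 222.2 and 248.3 in MKO with a median of 234.2, and between 201.1 and 266.9 in Ctrl with a median of 231.5. All TKO libraries were above all DKO libraries, and both groups overlapped Ctrl. Relative to Ctrl, the TKO log2 ratio was 0.17 ± 0.11 (adjusted p = 0.341), that of DKO -0.30 ± 0.11 (adjusted p = 0.301) and that of MKO 0.00 ± 0.11 (adjusted p = 0.997). TKO was higher than DKO by 0.46 ± 0.11 (adjusted p = 0.00975), and by 0.37 without DKO 1 (adjusted p = 0.00277). Fitted alone, these groups gave an adjusted p of 0.0821.

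Cacna1d (chromosome 14, 30039939 to 30491156, minus strand), an L-type pore that opens at more negative voltages and is known from the sinoatrial node and atria, had few reads. It averaged 1.57 ± 0.92 CPM in TKO, 1.84 ± 0.77 in DKO, 1.46 ± 0.73 in MKO and 1.18 ± 0.60 in Ctrl (SD, n = 6), from 6 to 38 counts per library. All groups overlapped, and the adjusted p of the 6 pairs lay between 0.553 and 0.896. Its exons overlap 589 bases of Chdh on the other strand. Without strand information their reads cannot be told apart, but Chdh had at most 1 count in any library.

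Scn4b (chromosome 9, 45139042 to 45154061, plus strand, 13.7 Mb from Hcn4), a beta subunit of the sodium channel, also had few reads. It averaged 1.83 ± 1.59 CPM in TKO, 2.46 ± 1.29 in DKO, 1.72 ± 0.72 in MKO and 1.88 ± 0.90 in Ctrl (SD, n = 6), from 2 to 72 counts per library. TKO libraries ran from 0.236 to 4.22 CPM, beyond the Ctrl range of 0.247 to 2.59 CPM at both ends. Relative to Ctrl, its log2 ratio was -0.04 ± 0.52 for TKO (adjusted p = 0.976), 0.40 ± 0.51 for DKO (adjusted p = 0.828) and -0.15 ± 0.52 for MKO (adjusted p = 0.97). All groups overlapped, and the adjusted p of the 6 pairs lay between 0.58 and 0.976.

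**Figure D2:**
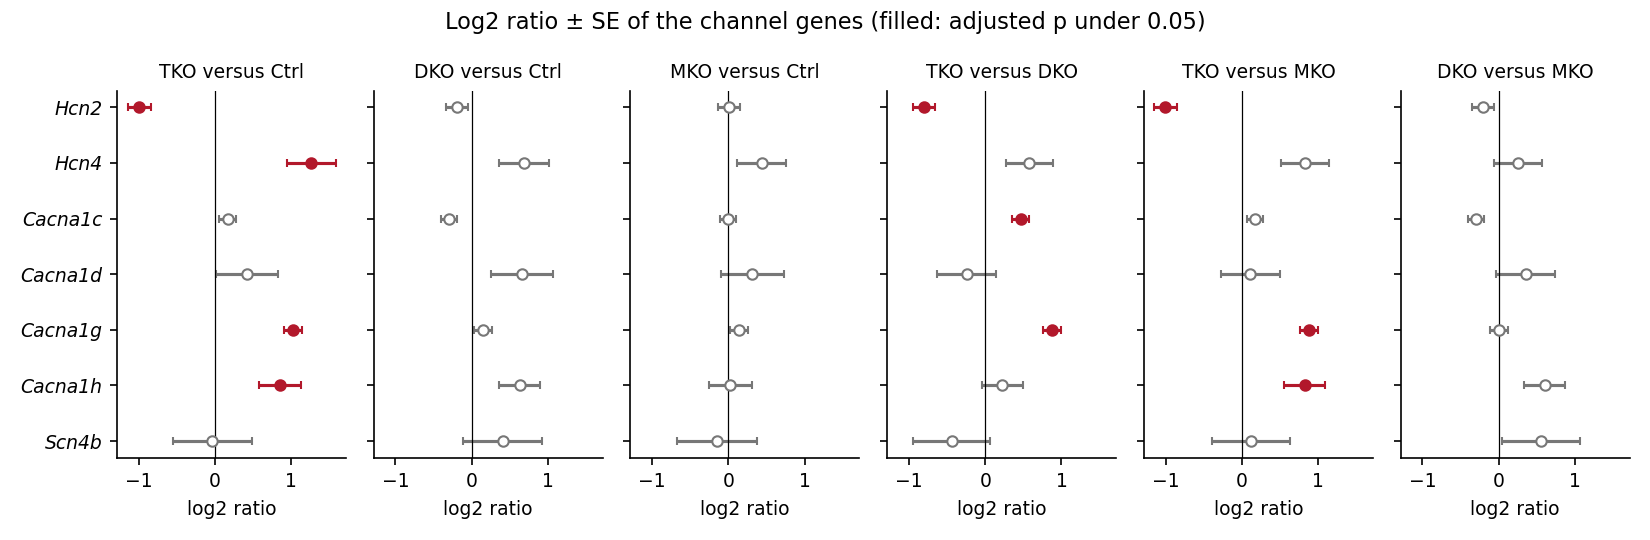
Log2 ratio (x axes) of each channel gene (rows) in the 6 pairs of groups, with whiskers of 1 SE, filled where the adjusted p was under 0.05. Filled points appear in the 3 pairs that include TKO and in no other pair, with Hcn2 at -0.99 and Cacna1g at 1.02 against Ctrl.

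Among the 6 pairs of groups, edgeR made calls in the 3 that include TKO. Against Ctrl, 3 of 7 genes rose and 1 fell, where 14.1% of all tested genes were called, 8.14% higher and 5.98% lower. The TKO and Ctrl libraries did not overlap for these 4 genes, as for 8.15% of tested genes. Against DKO, Cacna1c and Cacna1g were higher and Hcn2 lower (6.38% of tested genes called, 4.16% higher and 2.22% lower). Their libraries did not overlap for these 3 genes, as for 3.53% of tested genes. Against MKO, Cacna1g and Cacna1h were higher and Hcn2 lower (13.3% called, 6.48% higher and 6.86% lower). Libraries did not overlap for these 3 genes, as for 9.71% of tested genes. None of the 7 was called by edgeR in DKO against Ctrl, where 0.635% of tested genes were called, and DESeq2 also called 0. In that pair 3 of the 7, and 1285 of all 12281 tested genes, had an unadjusted p under 0.05. None was called in MKO against Ctrl, where 0% of tested genes were called. There 0 of the 7, and 762 of all tested genes, had an unadjusted p under 0.05, and DESeq2 called 0 of the 7. In DKO against MKO 0 were called (0.79% of tested genes), and 0 by DESeq2. Of the 7, 2 had an unadjusted p under 0.05 there, as did 1877 of all 12281 tested genes. Comparisons that share a group, such as those with Ctrl, are not independent.

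Whether the exchange of AAV-Cre for the guide virus went with a different change in the 2 genotypes was asked by the interaction, the log2 ratio of TKO to DKO minus that of MKO to Ctrl. It was called for Cacna1g alone, at 0.74 ± 0.17 (adjusted p = 0.042), where 0.464% of tested genes were called. The TKO to DKO ratio of Cacna1g was 0.87 and its MKO to Ctrl ratio 0.14. For Hcn2 it was -0.81 ± 0.21 (adjusted p = 0.0763), 0.0228 with DESeq2 and 0.0366 without Ctrl 2. Omitting any one of Ctrl 1, 3, 5 and 6, of MKO 1, 2, 3, 5 and 6, of DKO 2, 5 and 6, and of TKO 1, 4, 5 and 6 lost the Cacna1g call (adjusted p up to 0.0898), with values between 0.67 and 0.81. The other 5 genes had adjusted p between 0.192 and 0.938.

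The balance within each channel type, per kilobase, is given as a description with no test. The T-type genes Cacna1g and Cacna1h made up 36.2 ± 4.44% of the summed level of the 4 calcium channel genes in TKO, 32.3 ± 2.01% in DKO, 25.9 ± 1.86% in MKO and 24.4 ± 3.19% in Ctrl (SD, n = 6). The lowest DKO library, at 29.5%, was above the highest Ctrl library, at 28.9%, and above all MKO libraries. This share also depends on Cacna1c, which averaged 190.4 CPM in DKO and 234.3 CPM in Ctrl. Cacna1g averaged 59.4 and 53.8 CPM there, and Cacna1h 23.5 and 15.4 CPM. DKO 1 had the highest DKO share, at 34.7%. Its Cacna1c stood at 13.3, Cacna1g at 6.58 and Cacna1h at 0.534 CPM per kb, against Ctrl means of 25.9, 6.55 and 1.88. In TKO the sum of the 4 genes was also larger, at 45.8 ± 2.25 CPM per kb, against 31.3 ± 6.11 in DKO, 35.1 ± 1.42 in MKO and 34.4 ± 4.03 in Ctrl. Hcn4 made up 20.9 ± 4.36% of the Hcn2 and Hcn4 sum in TKO, 9.27 ± 4.74% in DKO, 6.96 ± 1.005% in MKO and 5.23 ± 1.39% in Ctrl. The sum itself was 14.5 ± 3.72 CPM per kb in TKO and 23.98 ± 2.57 in Ctrl, and Hcn4 made up at most 26.5% of it in any library. Cacna1h was 7.50% of the T-type level in DKO 1 and between 27.6% and 38.0% in the other DKO libraries.

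**Figure D3:**
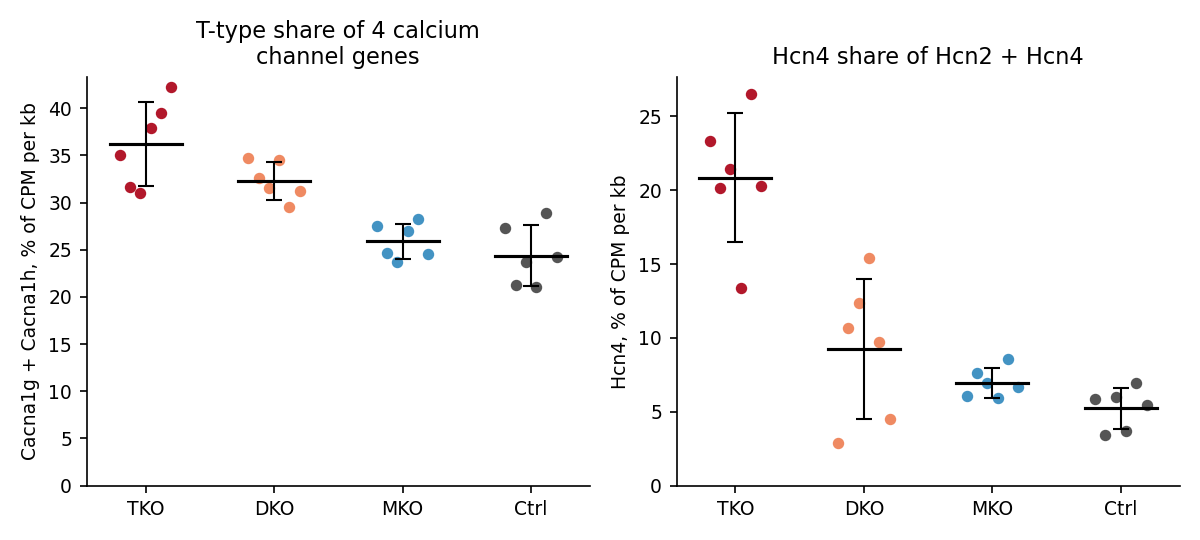
Left, Cacna1g and Cacna1h as a percentage of the summed CPM per kb of Cacna1c, Cacna1d, Cacna1g and Cacna1h; right, Hcn4 as a percentage of Hcn2 plus Hcn4 (y axes), for each library (points) with group mean and SD. The T-type share lay between 31.1% and 42.3% in TKO and between 21.02% and 28.9% in Ctrl, and the Hcn4 share between 13.4% and 26.5% in TKO and between 3.44% and 6.98% in Ctrl.

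Partner subunits were grouped by role. In the lists of channel, conduction and REST genes, edgeR called 0 members in DKO against Ctrl, in MKO against Ctrl and in DKO against MKO. Their counts in TKO against Ctrl are read against the 14.1% of all tested genes called there, 8.14% higher and 5.98% lower. The pacemaker channel gene Hcn3 stayed under the filter on low counts, at 0.318 CPM in TKO and 0.203 CPM in Ctrl. Of 5 HCN partners, 2 were tested. Mrvi1, a relative of the HCN regulator Lrmp, fell by 0.99 ± 0.34 against Ctrl (adjusted p = 0.0493), a call that 20 of 31 alternatives lost, among them sex as a term (0.0674) and the omission of any library other than Ctrl 4, Ctrl 6, MKO 2, MKO 4, DKO 1, DKO 5 and TKO 4 (up to 0.149). Against MKO it fell by 1.62 ± 0.33 (adjusted p = 0.00172). Its level was low, at a mean of 1.80 CPM in TKO, 3.58 CPM in Ctrl and 5.52 CPM in MKO. Of 10 alpha1 calcium channel genes, 6 were tested, and 2 rose (the channel genes Cacna1g and Cacna1h) and 1 fell in TKO against Ctrl, with a median log2 ratio of 0.29 against -0.01 over all tested genes. The faller was Cacna1s, the skeletal muscle L-type pore, at 2.16 ± 1.10 CPM in TKO and 5.09 ± 1.23 CPM in Ctrl (log2 ratio -1.22 ± 0.34, adjusted p = 0.0177).

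Among auxiliary calcium channel subunits 7 of 16 were tested, and 2 rose (8.14% of all tested genes) and 0 fell in TKO (median log2 ratio 0.23). Both encode beta subunits, which bring the pore to the membrane. Cacnb1, the beta subunit best known from skeletal muscle, lay between 12.7 and 18.8 CPM in TKO and between 6.10 and 9.67 CPM in Ctrl, with no overlap, and rose by 0.84 ± 0.13 (adjusted p = 5.97e-05). It was also higher in TKO than in DKO (0.75 ± 0.13, adjusted p = 0.000549) and MKO (0.95 ± 0.13, adjusted p = 1.62e-05). Its interaction was 0.86 ± 0.18 (adjusted p = 0.0346), lost on omitting any one of Ctrl 3 and 4, of MKO 1, 2 and 5, of DKO 2 and 6, and of TKO 3 and 4 (up to 0.0713). Cacnb2, the main cardiac beta subunit, averaged 188.4 ± 26.4 CPM in TKO and 151.1 ± 19.1 CPM in Ctrl and rose by 0.32 ± 0.11 (adjusted p = 0.047), a call that 20 of 31 alternatives lost, among them RLE size factors (0.0549), 22 libraries (0.0521) and the omission of any one of Ctrl 1 to 4, the MKO libraries, DKO 4 and 5, and TKO 4 to 6 (up to 0.132). Cacng6 was lower in TKO than in MKO by 1.42 ± 0.41 (adjusted p = 0.023), lost without MKO 4 or TKO 1 or 3 (up to 0.0568). Of the 4 RGK proteins, small GTPases that inhibit L-type channels, 3 were tested and 0 called in any comparison. The most abundant of them, Rrad, averaged 921.0 CPM in TKO and 774.2 CPM in Ctrl (log2 ratio 0.25 ± 0.19, adjusted p = 0.418).

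No sodium channel pore was called in any comparison, with 4 of 10 tested. Of 13 beta subunits and partners 10 were tested and 1 was called against Ctrl, a share under the 14.1% of all tested genes: ankyrin-G (Ank3), a scaffold that holds the sodium channel at the intercalated disc. Ank3 lay between 161.0 and 212.8 CPM in TKO and between 105.8 and 142.3 CPM in Ctrl, and rose by 0.52 ± 0.12 (adjusted p = 0.00517). It was also higher than in DKO by 0.59 ± 0.12 (adjusted p = 0.00371) and than in MKO by 0.63 ± 0.12 (adjusted p = 0.00122).

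**Figure D4:**
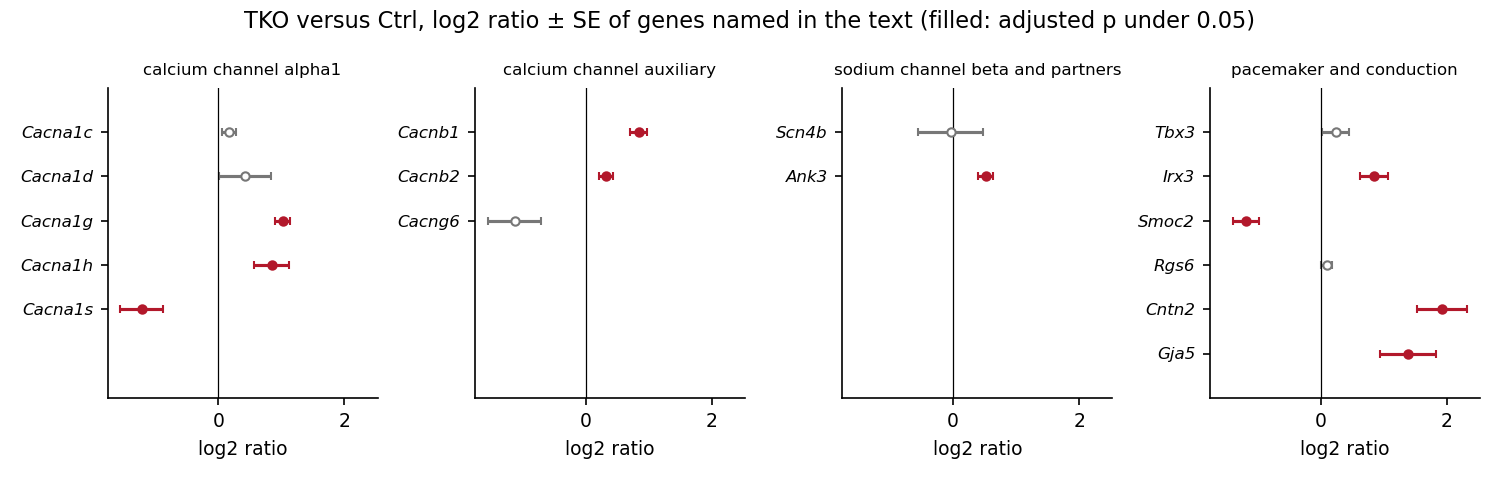
Log2 ratio of TKO to Ctrl (x axes) for the genes of 4 lists that are named in the text, apart from Tbx2 (rows). Whiskers are 1 SE, and points are filled where the adjusted p was under 0.05. Cacnb1 (0.84), Ank3 (0.52) and Cntn2 (1.93) lay to the right of 0, and Cacna1s (-1.22) and Smoc2 (-1.18) to the left.

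Genes known from pacemaker and conduction tissue were read beside the channels. Of 18, 15 were tested, and 3 rose and 1 fell in TKO against Ctrl (median log2 ratio 0.13), beside 8.14% of all tested genes higher and 5.98% lower. Cntn2, a cell adhesion protein of Purkinje fibres, lay between 5.395 and 39.8 CPM in TKO and between 1.84 and 11.2 CPM in Ctrl, and rose by 1.93 ± 0.40 (adjusted p = 0.00175). Irx3, a transcription factor of the fast conduction system, averaged 44.4 ± 8.42 CPM in TKO and 24.8 ± 8.75 CPM in Ctrl and rose by 0.84 ± 0.23 (adjusted p = 0.0118). The gap junction gene Gja5, outside the rule for named genes and added after its values were seen, rose by 1.39 ± 0.44 (adjusted p = 0.0347), lost without Ctrl 1, 3, 4 or 6 or TKO 5 or 6 (up to 0.134) and with these groups fitted alone (0.0654). Smoc2, an extracellular matrix protein expressed in the node, fell by 1.18 ± 0.20 (adjusted p = 0.000183). The early nodal factors Isl1 and Shox2 averaged at most 0.04 CPM in any group, and the nodal repressor Tbx3 averaged 17.7 CPM in TKO and 14.99 CPM in Ctrl without a call. In TKO against MKO 2 of these 15 were higher and 2 lower, beside 6.48% of all tested genes higher and 6.86% lower. Rgs6, which dampens G protein signalling to the node, was higher in TKO than in MKO by 0.40 ± 0.09 (adjusted p = 0.00548). Rgs6 averaged 30.4 CPM in TKO, 28.9 in DKO, 23.1 in MKO and 28.5 in Ctrl, without a call in TKO against Ctrl. Cntn2 was higher in TKO than in MKO by 1.26 ± 0.39 (adjusted p = 0.0321), a call that 9 of 31 alternatives lost. Smoc2 was lower by 0.95 ± 0.20 (adjusted p = 0.00223). Tbx2, also outside the rule for named genes, was lower by 1.23 ± 0.41 (adjusted p = 0.0497), lost in 19 of 31. The level of Tbx2 was low, at a mean of 2.60 CPM in TKO, 6.03 CPM in MKO and 2.80 CPM in Ctrl, without a call in TKO against Ctrl.

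REST is a repressor known to hold fetal genes down in the ventricle, with HCN and T-type channels among its described targets. Rest averaged 38.7 CPM in TKO and 35.8 CPM in Ctrl (log2 ratio 0.11 ± 0.11, adjusted p = 0.556). Of 7 genes of its complex, all tested, Ehmt2, a histone methyltransferase, rose by 0.50 ± 0.12 (adjusted p = 0.00483) and 0 fell, a share near the 14.1% of all tested genes. Rcor1, the corepressor, was lower in TKO than in MKO by 0.68 ± 0.22 (adjusted p = 0.0383), lost with these groups fitted alone (0.0515) and without MKO 1, 2, 4 or 5 or TKO 2, 3, 4 or 5 (up to 0.0814).

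The genes with the most similar pattern were found by the root mean square distance between centred group means of log2 CPM over the 4 groups, among 1749 or 1750 genes called in at least 1 comparison with a mean of at least 10 CPM. Nearest to Hcn2 were Arrdc4 (0.02), Rbfox1 (0.05) and Syt7 (0.07). Nearest to Hcn4 were Eda2r (0.06), Ext1 (0.07) and Sipa1l1 (0.07). Nearest to Cacna1g were Irs1 (0.02), Tulp4 (0.04) and Napepld (0.05). Nearest to Cacna1h were Fam105b (0.03), Tmtc1 (0.05) and Cidea (0.05), and nearest to Cacna1c were Herc4, Rprd1a and Ube4a (0.02 each). Over so few groups many genes share a pattern, and the distance says nothing of shared function.

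Markers of other cells were read beside these results, and their part in them was not tested. Smooth muscle and pericyte markers (10 genes), a cell type that also expresses Cacna1c and T-type genes, summed to between 529.3 and 715.0 CPM in TKO, 453.6 and 825.2 in DKO, 1125 and 1499 in MKO and 1210 and 1637 in Ctrl. Of 9 tested members 1 rose and 1 fell in TKO against Ctrl, where 8.14% of all tested genes were higher and 5.98% lower. The riser was Cspg4, at a mean of 75.6 CPM in TKO and 41.8 CPM in Ctrl (log2 ratio 0.855). The faller was Acta2, smooth muscle actin and a known target of SRF, at -2.76 ± 0.27 log2 units (adjusted p = 1.38e-07). Most of the sum came from Acta2 and Abcc9, and the other 8 genes summed to between 110.5 and 168.3 CPM in TKO, 67.1 and 212.2 in DKO, 153.3 and 342.1 in MKO, and 54.7 and 333.1 in Ctrl, ranges that overlap between TKO and Ctrl. Fibroblast markers (10 genes) summed to between 258.8 and 328.6 CPM in TKO and between 116.8 and 671.0 in Ctrl. Endothelial markers (10 genes) summed to between 115.8 and 414.6 CPM in TKO and between 115.2 and 1202 in Ctrl. In TKO against Ctrl 0 members of either list were called, where 14.1% of all tested genes were. In TKO against MKO, where 6.86% of all tested genes were lower, 6 of 10 endothelial, 6 of 9 tested smooth muscle and pericyte and 2 of 9 tested fibroblast markers fell. There 1 smooth muscle and pericyte marker rose, Cspg4, at a mean of 75.6 CPM in TKO and 44.9 CPM in MKO, where 6.48% of all tested genes were higher. The endothelial sums did not overlap there, at most 414.6 CPM in TKO and at least 473.6 CPM in MKO. Leukocyte markers (9 genes) stayed at or under 24.9 CPM and neuronal and Schwann cell markers (10 genes) at or under 14.4 CPM in every library.

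The authors' deposited table of TKO against Ctrl lists Hcn2 at -1.02 (adjusted p = 4.15e-08), Hcn4 at 1.28 (0.00042), Cacna1g at 0.98 (2.91e-09) and Cacna1h at 0.81 (0.000485) on the log2 scale, with no other channel gene under 0.05. The authors' deposited table of DKO against Ctrl lists Cacna1h at 0.78 (adjusted p = 0.018), and that of DKO against MKO lists it at 0.80 (0.00211). For these 2 log2 ratios the refit gave 0.63 and 0.60 with all 24 libraries, and 0.78 and 0.80 with 22 libraries. Their table of TKO against MKO, also deposited by the authors, lists Hcn4 at 0.83 (0.00495) and Cacna1c at 0.17 (0.0188). That of TKO against DKO lists Hcn2 at -0.68 (adjusted p = 0.00125), Cacna1c at 0.37 (0.00015) and Cacna1g at 0.85 (5.23e-09), with no other channel gene under 0.05. Across all genes, the deposited log2 ratios correlated with the 24-library refit at 0.82 to 0.84 in the pairs with DKO. The correlation was 0.956 in MKO against Ctrl, 0.985 in TKO against Ctrl and 0.9999 in TKO against MKO. Whether the deposited values rest on all 24 libraries was not tested.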

How the data were processed

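Gene-level counts, as whole numbers, were deposited by the authors in 1 table of 24 libraries. Reads were aligned with STAR to mm10 and counted with featureCounts, per the submitters' processing notes, which give no versions. For each of the 6 pairs of groups the authors deposited log2 fold changes and p-values, per the file headers. The headers give no direction, and each column correlated positively across genes with the refit in the direction printed.

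The two-sided edgeR 4.0.16 (R 4.3.3) quasi-likelihood test was applied to the counts, with TMM scaling, a coefficient per group and all 24 libraries in 1 model. filterByExpr with a minimum count of 10 left 12281 genes, over which Benjamini-Hochberg adjustment ran, and calls were made below 0.05. Each adjusted p is from this test unless another is named. Log2 ratios carry their SE, and levels are CPM at the effective library size. The test was tried on simulated data. The kits do not mark strand. No 2 libraries of the same group agreed within sampling noise (chi-square per gene 6.83 to 112.2 over 60 pairs). Pairs from different groups were not compared in this way.

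The 7 channel genes and all lists were chosen with earlier results of these data known. From each list up to 4 called genes with the smallest adjusted p were named, and genes with a like pattern were named by distance, 3 for each called channel gene. Alternatives were RLE size factors, DESeq2 1.42.0, no filter, the replicate number as a block, only the groups compared, 22 libraries (without Ctrl 3 and DKO 1), sex as a term, and each library left out. Sex was read from Xist and Y-linked transcripts, which gave 3 of 6 TKO, 1 of 6 DKO, 4 of 6 MKO and 4 of 6 Ctrl libraries as male. Some list genes are not reported here. Alternatives for list counts and shares were chosen after seeing the data.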

Additional observations from a re-analysis of the deposited data

Results flagged for a closer look

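Hcn4 in MKO 5, at 9.45 CPM, stood far above the other 5 MKO libraries (5.42 to 6.85 CPM), with a gap of 0.645 of the group's range. Chance flags about 1 in 20 groups, and this was the only one flagged among 28 groups of 6 libraries. For Cacna1g, the difference between libraries with the guide virus and those with AAV-Cre was larger in the Mrtf mutant genotype, with an interaction of 0.74 on the log2 scale (edgeR, adjusted p = 0.042). The call was lost on omitting any of 16 of the 24 libraries (up to 0.0898), and the contrast exchanges AAV-Cre for the guide virus, so the part of each virus cannot be told apart.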

How the results depend on the processing

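Hcn2 and Cacna1g kept their direction and their calls in the 3 comparisons of TKO under every alternative, as did Hcn4 in TKO against Ctrl (adjusted p at most 0.0303 without a library). The number of channel genes called in DKO against MKO was 1 with 22 libraries, and between 0 and 1 when single libraries were left out, as in DKO against Ctrl. In the interaction it was 2 with DESeq2 and between 0 and 2 when single libraries were left out. Uncalled log2 ratios near 0 changed sign. Scn4b in TKO against MKO was -0.11 with the replicate block, Hcn2 in MKO against Ctrl was -0.000228 with these groups fitted alone and -0.018 with 22 libraries, and Cacna1h in MKO against Ctrl was -0.021 with 22 libraries. Leaving out single libraries gave Scn4b from -0.52 to 0.19 (TKO against Ctrl), -0.38 to 0.015 (MKO against Ctrl) and -0.35 to 0.34 (TKO against MKO). It gave Hcn2 from -0.048 to 0.061, Cacna1h from -0.10 to 0.13 and Cacna1c from -0.054 to 0.025 in MKO against Ctrl. It gave Cacna1d from -0.18 to 0.32 in TKO against MKO, Cacna1g from -0.060 to 0.051 in DKO against MKO, and Hcn4 from -0.070 to 0.35 in the interaction. The cause of these changes was not tested. Of 743 alternative values for the 24 called results of list genes that are not channel genes, 108 lost the call and 0 changed sign. The number of all tested genes called moved by over 1.5 times with 22 libraries in TKO against Ctrl (2627 against 1734), TKO against DKO (1239 against 784), TKO against MKO (2892 against 1639) and the interaction (130 against 57). With the compared groups fitted alone it was 43 against 78 in DKO against Ctrl, 269 in TKO against DKO, 2581 in TKO against MKO and 48 against 97 in DKO against MKO. DESeq2 gave 167 in DKO against Ctrl, 1 against 0 in MKO against Ctrl, 248 in DKO against MKO and 191 in the interaction. Sex as a term gave 186 in DKO against Ctrl, 1243 in TKO against DKO, 342 in DKO against MKO and 99 in the interaction, and the replicate block gave 168 in the interaction. Leaving out single libraries gave between 14 (without DKO 2) and 585 (without Ctrl 2) in the interaction. Without DKO 1 it was 2808 in TKO against Ctrl, 2725 in TKO against MKO, 124 in DKO against Ctrl and 201 in the interaction. Without TKO 4 it was 495 in TKO against DKO, and in DKO against MKO it was 53 without MKO 6, 58 without MKO 3, 63 without MKO 4 and 64 without DKO 2.

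Deviations of same-numbered libraries correlated between -0.218 and 0.642 (median 0.0722, 36 pairs). Those of libraries with different numbers correlated between -0.496 and 0.445 (median -0.0236, 180 pairs). Of 24 libraries, 6 correlated best with their own number, and whether the replicate numbers pair the libraries was not tested. With the replicate number as a block, Cacna1h in TKO had an adjusted p of 0.0589 against Ctrl and 0.0569 against MKO, Cacnb2 against Ctrl 0.0506 and Mrvi1 0.057. Cacna1d and Scn4b had 2 to 72 counts per library, and whether depth set their missing calls was not tested.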
